A study of Mus musculus with 6 samples.

Results

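The expression of 10 genes of nitric oxide and arginine metabolism was examined in LPS-treated iBMDMs with and without knockdown of PGAM5. The genes were chosen by name, by their GENCODE M21 symbol, and all 10 were found among the 54532 genes of the deposited tables. The 8 described here are Nos2, Slc7a2, Ass1, Asl, Gch1, Pts, Odc1 and Oat. iBMDMs are mouse bone marrow-derived macrophages immortalized with retroviruses that carry v-raf and v-myc. Control cells received a control shRNA and PGAM5 KD cells a PGAM5-targeting shRNA, each by lentivirus, and both groups of 3 libraries were treated with LPS at 100 ng/ml for 4 hours. No untreated library is in the series, so the values compare both groups after LPS and measure no induction. The labels name 1 shRNA condition per group and not the lines or shRNA sequences. Knockdown of PGAM5 and other differences between the cells of the groups therefore cannot be told apart. Nothing in the labels says that replicates were separate cultures or infections, and the p-values then measure only the spread between these libraries.

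Macrophages use arginine in competing ways. Inducible nitric oxide synthase turns arginine into nitric oxide and citrulline and needs tetrahydrobiopterin as a cofactor, while argininosuccinate synthase and lyase can rebuild arginine from citrulline. Arginine is also split into urea and ornithine, from which polyamines and proline are made. Nitric oxide synthase is a classical marker of macrophages stimulated with LPS and IFN-γ.

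The recovered depth was between 18163463 and 24388915 fragments per library. The Pgam5 mRNA was at 13.0 to 17.1 FPKM in control and at 4.33 to 5.75 FPKM in PGAM5 KD libraries (log2 fold change -1.40, standard error 0.13, adjusted p = 0.000358 from limma). FPKM divides a gene's fragments by its exon length and by the depth of the library, and all fold changes are of PGAM5 KD over control on the log2(FPKM + 1) scale, which understates the change of low genes. Of 8 macrophage markers, 7 had a mean of at least 1 FPKM and Mertk was listed at 0 in every library. The summed FPKM of these markers was 2802 to 2894 in control and 2526 to 2544 in PGAM5 KD libraries, but single markers differed in both directions. Lyz2, Csf1r and Cd68 were lower in each PGAM5 KD library than in any control library, with Lyz2 at 1638 to 1698 FPKM in control and 1239 to 1279 FPKM in PGAM5 KD cells. Cd14, Adgre1, Fcgr1 and Itgam were higher in each PGAM5 KD library, with Cd14 at 456 to 469.9 and 671 to 698 FPKM, Adgre1 at 7.61 to 8.40 and 14.4 to 15.5 FPKM, and Fcgr1 at 3.75 to 5.30 and 12.7 to 15.7 FPKM. The part of these marker differences in the results for other genes was not tested. Summed within each list, neutrophil, fibroblast, lymphocyte and liver markers reached at most 0.568 FPKM in any library. Ly6g, Col1a2, Cd3e, Alb and Otc were among those at 0 in all 6 libraries.

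Among the genes of this group with a mean of at least 1 FPKM, Odc1 and Gch1 had the largest log2 fold changes between PGAM5 KD and control iBMDMs. The RefSeq sequences before their start sites (GRCm38.p6) are shown because both genes rose. Capitals mark TGACG, the first bases of the cyclic AMP response element. The Odc1 stretch is chr12:17544623-17544802 on the plus strand and the Gch1 stretch is chr14:47189414-47189663 on the minus strand, both written 5′ to 3′ along the gene.
Odc1: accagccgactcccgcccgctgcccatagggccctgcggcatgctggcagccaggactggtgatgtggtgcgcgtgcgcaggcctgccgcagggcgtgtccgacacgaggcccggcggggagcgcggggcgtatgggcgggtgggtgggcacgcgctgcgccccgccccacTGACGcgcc
Gch1: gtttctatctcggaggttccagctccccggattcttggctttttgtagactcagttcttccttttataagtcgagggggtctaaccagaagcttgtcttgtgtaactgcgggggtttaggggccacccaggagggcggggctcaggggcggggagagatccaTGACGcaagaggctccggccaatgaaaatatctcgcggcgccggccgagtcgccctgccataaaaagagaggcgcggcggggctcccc

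The match in Odc1 spans bases -79 to -75 from the RefSeq start, which is where the GENCODE M21 gene model begins at 17544794. In Gch1 it spans bases -88 to -84. Promoter windows from 250 bases before to 50 bases after the RefSeq start were given for 5 of the 10 genes, Odc1, Gch1, Ass1, Oat and Pts, and were searched on both strands. TGACG was in 3 of them, with Oat holding it at bases 34 to 38, against 20.8% of all 32851 promoter windows. The full element TGACGTCA was in none of the 5 windows and in 1.79% of all windows. The κB consensus was found in Gch1 at bases -10 to -1, where both strands match the pattern, and in 8.46% of all windows. Ass1 held the E-box CACGTG at bases -36 to -31, a match that contains the shorter ACGTG of the hypoxia response element, and these motifs were in 7.15% and 19.6% of all windows. ACGTG was also in Oat at bases 15 to 19. The interferon-γ activated motif TTCNNNGAA, the interferon-stimulated response element and the motif TGATGNAA were in none of the 5 windows, against 8.30%, 3.44% and 3.97% of all windows. These matches are a description of letters and were not tested as binding sites.

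Nos2 (ENSMUSG00000020826, chromosome 11, 78920787 to 78960254, plus strand, all gene positions being those of GRCm38) encodes inducible nitric oxide synthase. It had 94.1, 91.6 and 98.4 FPKM in control and 86.7, 87.4 and 81.5 FPKM in PGAM5 KD cells, from 7003 to 8767 fragments in each library. All 3 PGAM5 KD values were below all 3 control values. The mean fell from 94.7 ± 3.42 to 85.2 ± 3.24 FPKM (SD, n = 3 each). This is a log2 fold change of -0.15 with a standard error of 0.04, a 95% confidence interval from -0.25 to -0.052 and an adjusted p of 0.0329 from limma (exact two-sided permutation p = 0.1, the smallest that 3 libraries against 3 allow). Of all 10540 genes tested, 31.7% were past the same threshold, and 94.9% of those had a larger absolute change than Nos2. The call was lost in 7 of 15 alternatives, among them those without control replicate 1, control replicate 3, PGAM5 KD replicate 2 or PGAM5 KD replicate 3 (adjusted p = 0.0743, 0.0984, 0.0536 and 0.0907 from limma), and also with no filter on low values (0.0671) and with no mean-variance trend (0.0725). Scaling to TPM, which removes the larger FPKM sums of the PGAM5 KD libraries (317936 to 324298 against 304393 to 304889 in control), gave a log2 fold change of -0.23. In these bulk libraries, fewer cells with the mRNA and less of it in each cell cannot be told apart.

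Over the 6 libraries, the 5 genes whose log2(FPKM + 1) was most correlated with that of Nos2 were Prkdc, Plekho2, Rragc, Speg and Ell2, with Pearson's r between 0.990 and 0.996. With 6 libraries in 2 groups, such values are a description, and they hold the difference between the groups.

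The tetrahydrobiopterin branch is represented by Gch1 and Pts. Gch1 (ENSMUSG00000037580, chromosome 14, 47153895 to 47189413, minus strand) encodes GTP cyclohydrolase 1, the first and rate-limiting enzyme of the pathway. It had 2.94, 3.46 and 3.03 FPKM in control and 5.58, 5.90 and 5.83 FPKM in PGAM5 KD libraries. The groups were well apart, with the highest control library below the lowest PGAM5 KD library. The ratio of the mean FPKM was 1.84, and limma gave a log2 fold change of 0.71 with a standard error of 0.07 and an adjusted p of 0.000543, from 334 to 889 fragments in each library. On voom with the recovered fragments, which uses no added FPKM constant, the log2 fold change of Gch1 was 0.87.

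Pts (ENSMUSG00000032067, chromosome 9, 50521617 to 50528724, minus strand) encodes 6-pyruvoyltetrahydropterin synthase, which acts after Gch1. Its values were 3.54, 3.22 and 4.31 FPKM in control and 3.24, 3.42 and 4.10 FPKM in PGAM5 KD libraries. The groups overlapped throughout, with a log2 fold change of -0.0295 whose 95% confidence interval ran from -0.296 to 0.237 (adjusted p = 0.865, limma). The interval of Pts lies below that of Gch1, which ran from 0.54 to 0.88. Gchfr, which encodes the feedback regulator of GTP cyclohydrolase 1, was at 5.97, 6.84 and 5.40 FPKM in control and 4.94, 7.68 and 7.63 FPKM in PGAM5 KD libraries. The ratio of Gch1 to Gchfr within a library was 0.492, 0.505 and 0.561 in control and 1.13, 0.768 and 0.764 in PGAM5 KD libraries. The ratio was higher in each PGAM5 KD library than in any control library, while its distance from 1 depends on the exon lengths used. The difference of the log2 ratio was 0.75 (exact permutation p = 0.1, adjusted over the pairs 0.133). A ratio within a library does not depend on the scaling between libraries.

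**Figure D1:**
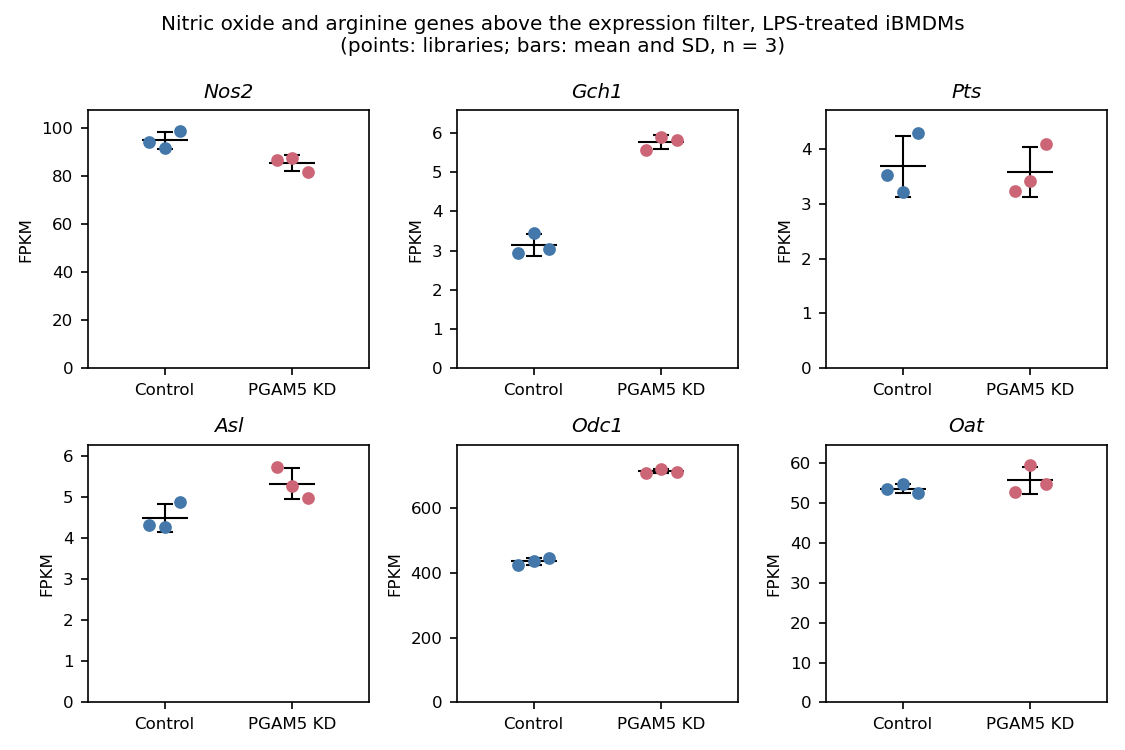
Expression in FPKM (vertical axes, each from 0) of the 6 genes with a mean of at least 1 FPKM, by group; points are libraries and bars the mean and SD (n = 3). Gch1 and Odc1 are clearly higher in PGAM5 KD cells, Nos2 is slightly lower with groups that do not overlap, Asl is higher without passing the test, and Pts and Oat overlap.

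The genes that recycle citrulline to arginine differed in level, with Asl measured in every library and Ass1 near 0. Asl (ENSMUSG00000025533, chromosome 5, 130011258 to 130029247, minus strand) encodes argininosuccinate lyase. It had 4.31, 4.26 and 4.87 FPKM in control and 5.73, 5.27 and 4.98 FPKM in PGAM5 KD libraries. The groups did not overlap, although control replicate 3 was close to PGAM5 KD replicate 3. The log2 fold change was 0.21, with a standard error of 0.08 and a 95% confidence interval from 0.03 to 0.39, and did not pass the test (adjusted p = 0.0758, limma). Libraries did not overlap between the groups for 47.1% of all genes tested, and for 4 of the 6 tested here, Nos2, Gch1, Asl and Odc1.

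Ass1 (ENSMUSG00000076441, chromosome 2, 31470207 to 31520672, plus strand) encodes argininosuccinate synthase, which supplies the substrate of Asl. It had 0, 7 and 1 fragments in control and 2, 2 and 4 fragments in PGAM5 KD libraries, at most 0.144 FPKM. Both groups had 8 fragments in all, and the ratio of PGAM5 KD to control at equal depth was 0.897 with an exact 95% counting interval from 0.293 to 2.74. The processed pseudogene Gm5424 on chromosome 10 is 99.5% identical to Ass1 over 1240 bases and could take its fragments, but both genes together had only 3 to 13 fragments per library.

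Slc7a2 (ENSMUSG00000031596, chromosome 8, 40862396 to 40922308, plus strand) encodes the cationic amino acid transporter CAT2. It had 2 fragments in control replicate 3 and 0 in the other 5 libraries, which is below a floor of 3 fragments per group, so no fold is given. Slc7a1, which encodes the related transporter CAT1, was at 24.3, 25.5 and 24.7 FPKM in control and 24.3, 24.2 and 24.5 FPKM in PGAM5 KD libraries. The log2 fold change of Slc7a1 was -0.0285, with a 95% confidence interval from -0.115 to 0.0578 (adjusted p = 0.589, limma).

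**Figure D2:**
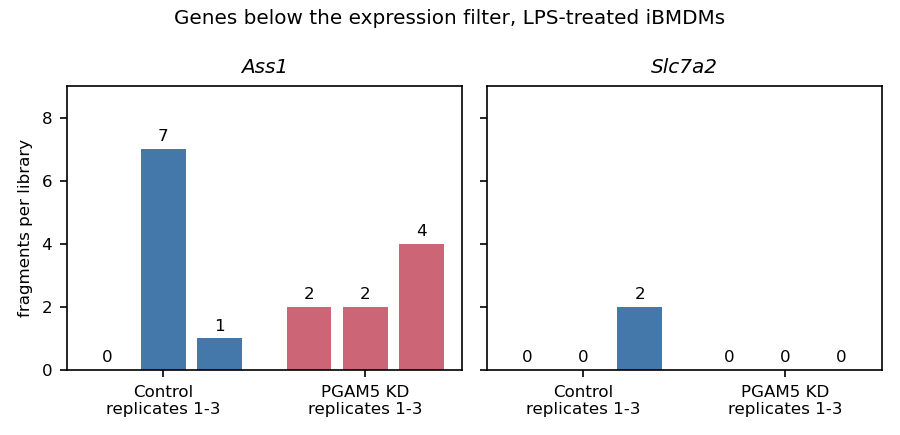
Fragments per library (vertical axis) for Ass1 and Slc7a2, which had a mean under 1 FPKM, with replicates 1 to 3 of each group as bars. Ass1 has 0 to 7 fragments and Slc7a2 0 to 2, and both genes are at or near 0 in both groups.

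Ornithine is the branch point to polyamines and proline. Odc1 (ENSMUSG00000011179, chromosome 12, 17544794 to 17551505, plus strand) encodes ornithine decarboxylase, the first enzyme of polyamine synthesis. Its expression was 423.8, 437.3 and 446.1 FPKM in control and 709 FPKM, 721.9 FPKM and 711.3 FPKM in PGAM5 KD libraries, the highest of the 10 genes. The groups were far apart compared with the spread within them, at 436 ± 11.2 and 714 ± 6.89 FPKM (SD, n = 3 each). The ratio of the means was 1.64 and the log2 fold change 0.71, with a standard error of 0.03 and an adjusted p of 1.82e-05 from limma. A change at least as high was found in 2.32% of all genes tested. Scaled to TPM the log2 fold change was 0.63, and with quantile normalization it was 0.53.

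Odc1 resembles 19 other genes, most of them processed pseudogenes, of which 10 had fragments. Gm7993 on chromosome 5, which is 95.3% identical to Odc1 over 1401 bases, held most of these, with 294.6, 285.3 and 307.5 FPKM in control and 523.7, 497.1 and 479.3 FPKM in PGAM5 KD libraries. It rose as Odc1 did (log2 fold change 0.76, standard error 0.04, adjusted p = 5.48e-05 from limma). Between 75.8% and 77.8% of the fragments of the whole group were on Odc1, with means of 77.1% in control and 76.6% in PGAM5 KD libraries. Summed over all these genes and scaled to depth, fragments were higher in PGAM5 KD libraries by 0.72 on the log2 scale (SD 0.03 in control and 0.01 in PGAM5 KD libraries, exact permutation p = 0.1), so the difference was as large when the split between Odc1 and its copies was left out of account. The level of Odc1 may be understated where fragments went to a copy.

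Oat (ENSMUSG00000030934, chromosome 7, 132557478 to 132576398, minus strand) encodes ornithine aminotransferase, which carries ornithine toward proline and glutamate. It had 53.5, 54.9 and 52.6 FPKM in control and 52.9, 59.6 and 54.7 FPKM in PGAM5 KD libraries. PGAM5 KD replicate 2 was the highest and the other libraries overlapped. The log2 fold change was 0.052, with a 95% confidence interval from -0.0637 to 0.168 and an adjusted p of 0.459 from limma, and its sign changed under TPM scaling and quantile normalization. The 2 genes that resemble Oat had no fragments. The ratio of Odc1 to Oat was 7.92, 7.96 and 8.48 in control and 13.4, 12.1 and 13.0 in PGAM5 KD libraries, a log2 difference of 0.66 between groups that did not overlap (exact permutation p = 0.1, adjusted over the pairs 0.133). Of 8 ratios planned, 4 had both genes at 0.1 FPKM or more in every library.

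In FPKM the order in control cells was Odc1, Nos2, Oat, Asl, Pts, Gch1, Ass1 and Slc7a2. The levels of Asl and Pts touched, at 4.26 to 4.87 and 3.22 to 4.31 FPKM, as did those of Pts and Gch1. In PGAM5 KD cells Gch1 had the highest mean of these 3 genes, at 5.77 ± 0.171 FPKM (SD, n = 3), although its lowest library was below the highest of Asl, which had a mean of 5.32 FPKM. FPKM divides by all annotated exon bases, and for Pts these came to 6101 while its longest protein-coding transcript has 1046 bases. With FPKM computed on the longest protein-coding transcript in place of all exons, Pts was at 21.5 in control and 20.9 in PGAM5 KD cells, against 8.96 and 10.7 for Asl and 7.08 and 13.0 for Gch1, so the order of these genes depends on the length used.

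Of the 10 genes, 6 passed the filter and 3 of these were past the adjusted threshold, Odc1 and Gch1 higher and Nos2 lower in PGAM5 KD cells. Over all genes tested, 16.8% were past it and higher and 14.9% past it and lower. Scaled to TPM, these shares were 10.3% and 21.7%, with Odc1 and Gch1 still past it and higher and Nos2 past it and lower. None of the 6 had an absolute log2 fold change above 1, which 1.32% of all genes had together with the adjusted threshold. The median log2 fold change of the 6 was 0.13, against 0.01 for all genes tested.

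The other genes of these pathways were described from 9 lists with 105 genes in the annotation, of which 72 were tested. Past the threshold were 31, with 23 higher and 8 lower, and the median log2 fold change of the 72 was 0.08. Scaled to TPM, 16 of the 72 were past it and higher and 11 past it and lower, and their median was 0.0067 against -0.0601 for all genes. The 31 genes were 43.1% of those tested, against 31.7% of all genes. The lists were chosen with earlier results of these data known, so such shares are a description. With a mean FPKM of at least 5, 17 of 59 pathway genes were past the threshold and higher and 8 past it and lower. Of all genes under that filter, 21.5% were past the threshold and higher and 17.5% past it and lower. Of the 31 genes, 16 were past it in each alternative in which they were tested, 15 lost it in at least 1 alternative, and Eif5a, chosen after its values were seen, was higher by 0.15 but lower by quantile normalization (-0.136). Nostrin, Spr, Akr1b3, Atp13a2, Glud1, Adh5 and Rela each lost the call in 6 to 11 alternatives, and no other of the 31 genes lost it in more than 5. Without PGAM5 KD replicate 2, 20 genes were past the threshold in place of 31.

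By list, the share of tested genes past the threshold ran from 11.1% to 66.7%, against 31.7% of all genes tested. Each list had only 4 to 15 tested genes. Among nitric oxide synthases and their partners, 2 of 7 tested genes were higher and none lower. Nostrin, a trafficking factor of endothelial nitric oxide synthase, rose from 3.78 ± 0.32 to 5.34 ± 0.727 FPKM (log2 fold change 0.40). The other synthase genes, Nos1 and Nos3, had means of 0.0691 and 0.025 FPKM over the 6 libraries. Of the transport list, 2 of 7 were higher and none lower. Slc7a7, which encodes the light chain of a cationic amino acid exporter, rose from 0.639 ± 0.265 to 1.71 ± 0.274 FPKM (log2 fold change 0.73), but it passed the filter on the mean of all libraries only through the PGAM5 KD group, and Castor2, of the family of arginine sensors upstream of mTORC1, rose from 2.30 ± 0.107 to 3.23 ± 0.274 FPKM (0.36).

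Of 4 tested genes of the urea cycle and other uses of arginine, 2 were higher and none lower. Gatm, which uses arginine for creatine synthesis, was at 30.01, 31.01 and 28.9 FPKM in control and 47.3, 40.4 and 38.7 FPKM in PGAM5 KD libraries (log2 fold change 0.47, standard error 0.07, adjusted p = 0.00396 from limma). Ckb, the brain-type creatine kinase, was at 62.4, 58.7 and 64.8 FPKM in control and 97.6, 101 and 99.4 FPKM in PGAM5 KD libraries (0.67, standard error 0.04, adjusted p = 8.4e-05 from limma). Both were higher in each PGAM5 KD library than in any control library. The urea cycle genes Otc and Nags were listed at 0 and Cps1 at a mean of 0.0033 FPKM. Of 9 tested genes of methylarginine synthesis and clearance, 1 was higher, the arginine methyltransferase gene Prmt2 (3.44 ± 0.544 to 5.03 ± 0.289 FPKM, log2 fold change 0.45).

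Of 7 other tetrahydrobiopterin genes tested, 3 were higher and none lower. Spr encodes sepiapterin reductase, the last enzyme of the synthesis after Pts. It rose from 9.70 ± 0.587 to 11.7 ± 0.773 FPKM (log2 fold change 0.25), a call that TPM scaling ended (adjusted p = 0.0732 from limma). Cbr1 and Akr1b3, carbonyl and aldose reductases that can act in place of sepiapterin reductase, rose by 0.28 and 0.12, and TPM scaling ended the call of Akr1b3 (adjusted p = 0.307 from limma).

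In the polyamine list, 15 genes were tested, with 4 higher and 3 lower. Oaz2, an antizyme that binds ornithine decarboxylase and leads it to degradation, rose from 6.25 ± 0.754 to 9.94 ± 1.24 FPKM (log2 fold change 0.59, standard error 0.11, adjusted p = 0.00701 from limma). Azin1, the antizyme inhibitor, fell from 39.2 ± 2.24 to 31.6 ± 1.37 FPKM (-0.30, standard error 0.05, adjusted p = 0.00624 from limma). Smox and Sat1, which encode spermine oxidase and spermidine/spermine acetyltransferase of polyamine breakdown, rose by 0.51 and 0.37. Oaz1 was at 155, 165 and 156 FPKM in control and 145, 172 and 190 FPKM in PGAM5 KD libraries, groups that overlapped. The ratio of Odc1 to Oaz1 was 2.73, 2.64 and 2.85 in control and 4.88, 4.20 and 3.75 in PGAM5 KD libraries, a log2 difference of 0.63 (exact permutation p = 0.1, adjusted over the pairs 0.133).

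In the proline and glutamate branch, 6 genes were tested, with 2 higher and 2 lower. Pycrl, which encodes a pyrroline-5-carboxylate reductase of the last step to proline, fell from 34.1 ± 1.00 to 29.2 ± 0.512 FPKM (log2 fold change -0.21). Aldh18a1, whose enzyme makes the same intermediate from glutamate, rose by 0.20, a call that TPM scaling ended (adjusted p = 0.0826 from limma), and Glud1, glutamate dehydrogenase, had a log2 fold change of -0.12.

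Of 5 tested genes of nitric oxide receptors and denitrosylation, 2 were higher and 1 lower. Txnrd1, cytosolic thioredoxin reductase, was at 106, 104 and 103 FPKM in control and 68.4, 68.0 and 68.3 FPKM in PGAM5 KD libraries. It was the gene of the lists with the largest fall (log2 fold change -0.61, standard error 0.03, adjusted p = 2.4e-05 from limma). Akr1a1 and Adh5, which encode reductases of S-nitrosylated coenzyme A and S-nitrosoglutathione, rose by 0.15 and 0.13, and TPM scaling ended both calls (adjusted p = 0.152 and 0.314 from limma). The soluble guanylate cyclase genes Gucy1a1, Gucy1a2 and Gucy1b1 were listed at 0.

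**Figure D3:**
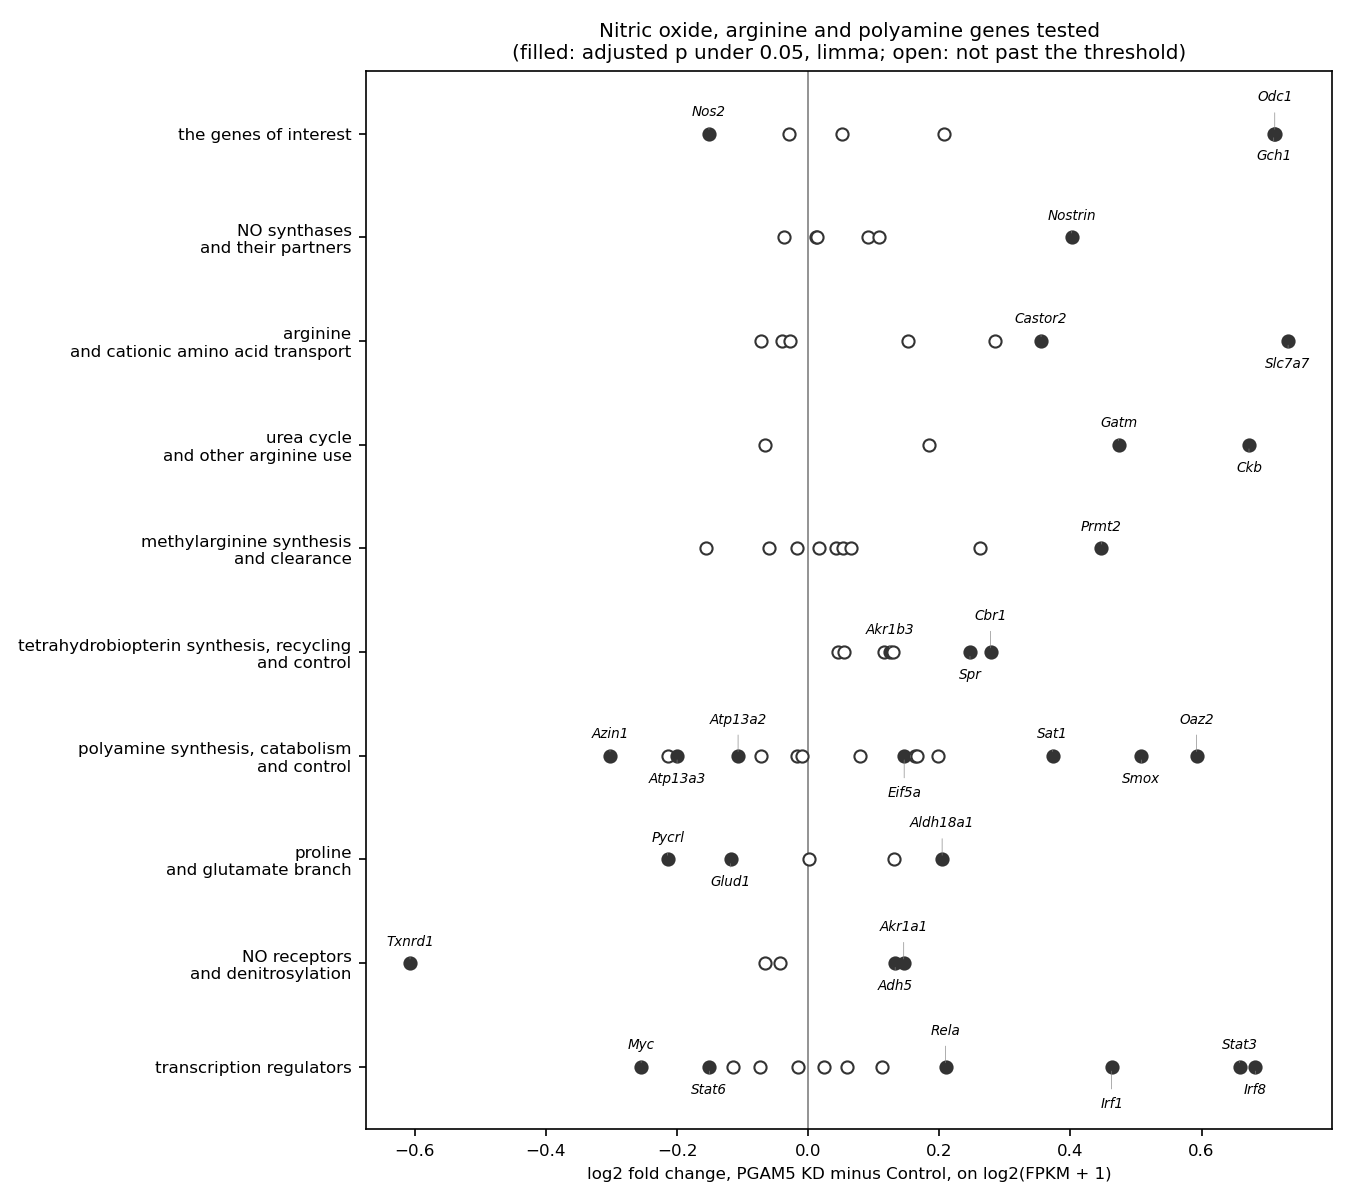
Log2 fold change of PGAM5 KD over control on log2(FPKM + 1) (horizontal axis) for tested genes, 1 line per list; filled points are past an adjusted p of 0.05 in limma and carry their name, open points are not. Odc1 and Gch1 lie at 0.71 and Nos2 at -0.15, while Txnrd1 at -0.61 is the leftmost of all; Eif5a, drawn as higher, changed sign under quantile normalization.

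A list of transcription regulators of these genes was also compared, and 13 of 16 were tested. Higher were 5 genes, lower were 2, and 6 were not past the threshold. Among the 5 higher genes were Irf8, Stat3 and Irf1, transcription factors of cytokine and interferon responses, which rose by 0.68, 0.66 and 0.46. Their libraries did not overlap between the groups, as for 9 of the 13 tested and for 47.1% of all genes tested. Irf8 had 4.82 ± 0.468 and 8.33 ± 0.435 FPKM in control and PGAM5 KD cells (SD, n = 3 each), and Irf1 had 3.70 ± 0.351 and 5.48 ± 0.543 FPKM. In the same libraries Nos2 was lower. The part of these factors in the levels of Nos2 was not tested.

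The estimates of Nos2, Gch1 and Odc1 under each setting show where a call depends on the processing.

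**Figure D4:**
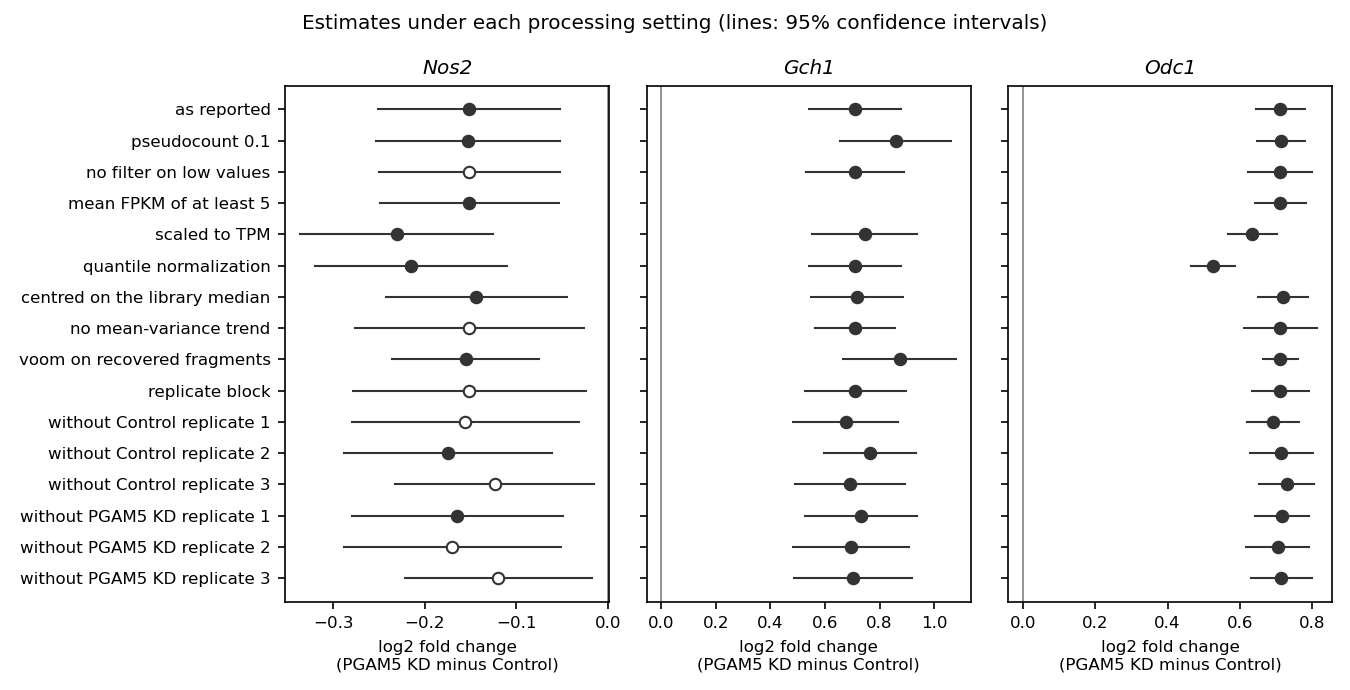
Log2 fold change of PGAM5 KD over control (horizontal axes) of Nos2, Gch1 and Odc1 under each setting (vertical axis), with 95% confidence intervals; filled points are past an adjusted p of 0.05. Gch1 and Odc1 stay past it in each setting in which they were tested, and Nos2 stays below 0 but is open in 7 of 15 alternatives.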

How the data were processed

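RNA-seq values from 6 libraries of LPS-treated iBMDMs were used, 3 control and 3 PGAM5 KD, grouped by their labels. The authors deposited FPKM, 1 table per library with 54532 Ensembl genes, and their processing notes name HISAT2 2.0.5, featureCounts 1.5.0-p3 and mm10. The annotation release and the strand setting are not given in the sources used here. Names, coordinates and exon lengths came from GENCODE M21 (GRCm38), in which 54495 of them were found. The product of FPKM and exon length was within 0.01 of a whole number of fragments for 96.8% to 97.1% of values under 1000 fragments, which gave each library's depth.

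The 10540 genes whose FPKM averaged 1 or more were compared on the log2(FPKM + 1) scale by two-sided moderated tests of limma 3.58.1 (R 4.3.3) with a mean-variance trend, and p-values were adjusted by Benjamini-Hochberg (threshold 0.05). An absolute log2 fold change above 1 is the study's further threshold for differential expression. Single genes and within-library ratios were also compared by an exact two-sided permutation test. Genes resembling a gene of interest were sought with blastn 2.17.0, keeping matches of 85% identity or more and 200 bases or more. The fit was tested on simulated data. The alternatives were another pseudocount, other filters and scalings, no trend, voom on recovered fragments, a replicate block and leaving out each library.

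The genes and lists were chosen with earlier results of these data known. Named genes are the 10 genes, Pgam5, at most 4 genes past the threshold per pathway list by size of change, genes of the ratios, the 5 genes most correlated with Nos2, and marker or look-alike genes where a check needs them. Of the list names, 2 were not in the annotation. Of the 10 genes, 2 are not reported here, nor are 3 pathway genes, though the counts include them. The depth limits precision most for Ass1 and Slc7a2, and counting intervals cover counting error only. The 6 libraries are the only samples of this series analysed here.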

Additional observations from a re-analysis of the deposited data

How the results depend on the processing

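Odc1 and Gch1 kept their direction and stayed past the threshold in each of the 15 and 14 alternatives in which they were tested, with log2 fold changes from 0.53 to 0.73 and from 0.68 to 0.87, as did Pgam5 (-1.59 to -1.28). With a mean FPKM of at least 5, Gch1, Asl and Pts were not tested. Nos2 kept its direction in all 15 and lost its call in 7. Its log2 fold change was -0.15 with no filter on low values, with no mean-variance trend and with the replicate block (adjusted p = 0.0841 from limma), and it ranged from -0.175 to -0.12 when each library was left out. The cause of these losses was not tested. Oat was at -0.0257 scaled to TPM and -0.000922 with quantile normalization, and Pts ranged from -0.108 to 0.063 when each library was left out. Of the 10 genes, 2 or 3 were past the threshold in each alternative. Between 20 and 29 pathway genes were past it when each library was left out. Genes past both thresholds numbered 139, and 261 with a pseudocount of 0.1, 76 with a mean FPKM of at least 5, 233 scaled to TPM and 283 with voom. TPM scaling moved the called genes from 1771 higher and 1575 lower to 1088 and 2282. The labels do not say whether the replicate numbers pair the libraries. Correlations of same-numbered deviations from the group means were from -0.0516 to 0.0161. These show no strong shared effect but cannot settle whether the libraries were paired. The replicate block changed no call of the 10 genes other than that of Nos2. With it, 2652 genes were past the threshold, against 3346 without it. The few fragments on Ass1 and Slc7a2 limit what can be said of them.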
